A study of Mus musculus with 6 samples.

Results

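The genes described here make, sense, take up, store or export cholesterol, and were followed in mouse bone marrow neutrophils cultured with or without prostaglandin E2 (PGE2), a lipid mediator of inflammation that raises cAMP through some of its receptors. They were 32 genes chosen by symbol (18 synthesis enzymes, 7 genes that sense sterols or regulate transcription, 2 efflux transporters and 5 genes of uptake, storage and transport) out of 45777 genes in the table. All 32 passed the filter on low counts, as did 15947 genes in all. The cells came from wild type C57BL/6 mice, were purified on a Percoll density gradient, and were kept for 24 h with 10 µM PGE2 (3 libraries) or with its DMSO vehicle (3 libraries), which the series design calls biological replicates. Neither the age nor the sex of the mice is stated in the labels.

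Cholesterol is built from acetyl-CoA through mevalonate, isoprenoids, squalene and lanosterol. When sterols in the endoplasmic reticulum are scarce, SCAP escorts the SREBP transcription factors to the Golgi, where they are cut and released to switch on synthesis and uptake genes; INSIG proteins hold SCAP back when sterols are plentiful. Oxysterols, which build up with cholesterol, activate the LXR receptors, which switch on the exporters ABCA1 and ABCG1, the SREBP gene Srebf1, and Mylip, whose product marks lipoprotein receptors for breakdown.

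The promoters shown here (250 bases before to 50 after a start site, RefSeq, GRCm38.p6) are those of the exporter gene that moved most, of an LXR target gene that carries the same kind of element and did not pass the test, and of 2 synthesis enzymes. Capitals mark matches to 3 of the motifs searched, on either strand.
Abca1, chr4:53159846-53160145, minus strand: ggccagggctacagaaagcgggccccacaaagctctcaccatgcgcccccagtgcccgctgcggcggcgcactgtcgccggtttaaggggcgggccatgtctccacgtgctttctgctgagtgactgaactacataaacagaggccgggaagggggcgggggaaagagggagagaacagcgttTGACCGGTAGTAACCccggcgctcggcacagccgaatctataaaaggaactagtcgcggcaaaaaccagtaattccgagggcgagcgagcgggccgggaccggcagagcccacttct
Srebf1, chr11:60210422-60210721, minus strand: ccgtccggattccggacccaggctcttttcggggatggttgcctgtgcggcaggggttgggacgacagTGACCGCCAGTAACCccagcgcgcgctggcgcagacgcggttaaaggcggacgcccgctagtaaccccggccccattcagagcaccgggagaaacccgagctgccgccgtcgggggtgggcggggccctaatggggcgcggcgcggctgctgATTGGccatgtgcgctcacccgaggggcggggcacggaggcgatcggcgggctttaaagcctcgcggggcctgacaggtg
Hmgcs1, chr13:119690101-119690400, plus strand: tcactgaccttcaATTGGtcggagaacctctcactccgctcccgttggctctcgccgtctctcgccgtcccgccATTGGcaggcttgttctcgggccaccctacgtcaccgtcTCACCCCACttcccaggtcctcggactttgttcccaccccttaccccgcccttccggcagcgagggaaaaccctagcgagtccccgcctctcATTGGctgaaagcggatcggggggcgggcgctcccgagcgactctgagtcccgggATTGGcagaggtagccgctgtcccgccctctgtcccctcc
Idi1, chr13:8885356-8885655, plus strand: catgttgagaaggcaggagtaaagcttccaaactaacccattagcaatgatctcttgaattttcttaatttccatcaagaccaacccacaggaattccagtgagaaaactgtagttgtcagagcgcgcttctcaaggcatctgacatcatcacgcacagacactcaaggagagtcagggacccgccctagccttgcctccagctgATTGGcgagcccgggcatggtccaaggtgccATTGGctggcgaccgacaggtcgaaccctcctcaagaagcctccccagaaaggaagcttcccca
In Abca1 and Srebf1 the capitals before any CCAAT box are an LXR element read on the other strand, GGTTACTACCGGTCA in Abca1 and GGTTACTGGCGGTCA in Srebf1. The search left 4 bases after its first GGTTA free, on both strands, and its letters were chosen with the Abca1 promoter in view. It lay 67 bases before the Abca1 start site and 182 bases before this Srebf1 start site, and was found in the promoters of 4 of 27025 genes (0.0148%). The other capitals are the sterol regulatory element TCACNCCAC, to which SREBPs bind, once in Hmgcs1, and the NF-Y box, to which a cofactor of SREBPs binds. The NF-Y box is CCAAT and reads as its reverse complement where it lies on the other strand.

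Promoters of 26 of the 32 genes were in the reference table. A gene was counted if any of its start sites in that table held the motif. The NF-Y box was found for 14 of 15 synthesis enzymes (93.3%). Its share was 42.7% of the 11558 tested genes with a promoter in the table and 41.1% of all 27025 genes. Of all 32851 single start sites, 37.4% held it. The sterol regulatory element as spelled here was found for 1 of these 15 enzymes, Hmgcs1, and for 1.44% of all genes. A strict LXR direct repeat, GGTCA and AGGTCA with 4 free bases between them, and the cAMP response element TGACGTCA were in none of the 26, and in 0.0222% and 2.03% of all. A motif match is a description of the letters in this window.

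Each library held 42091346 to 56238941 counts. Neutrophil markers made up 8.2 to 8.93% of the reads, led by S100a8 and S100a9, and 7 of 12 were lower with PGE2. Erythroid markers summed to 4501 to 20206 CPM (counts scaled to a common library total, after TMM) in the vehicle libraries and 15780 to 51645 CPM in the PGE2 libraries, and all 12 had log2 fold changes above 0 (1 passed, and 12 with the block). Monocyte and macrophage markers summed to 1149.9 to 1482 CPM in vehicle and 743 to 1140.0 CPM in PGE2, with 0 of 12 higher and 3 lower. Of these 12, 4 had log2 fold changes above 0. B lineage markers summed to 542 to 734 CPM in vehicle and 761 to 1122 CPM in PGE2, with 5 of 12 higher (9 with the block). Eosinophil, mast and basophil markers summed to 234 to 325 CPM in vehicle and 139 to 229 CPM in PGE2, with 4 of 12 lower. Of all genes tested, 10.1% were higher and 14.3% lower (16.6% and 18.9% with the block). None of the markers of these 5 lists was at 0 in every library, and their part in the results was not tested.

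Of the 32 genes, 3 passed the test, all of them in efflux, uptake or transport. Abca1 was 4.32-fold higher, Mylip 1.37-fold higher, and Npc1, which moves cholesterol out of lysosomes, fell to 0.697 of its vehicle level. None of the 18 synthesis enzymes passed the test. In edgeR's quasi-likelihood test with Benjamini-Hochberg adjustment over all genes, 2 of the 32 genes were higher and 1 was lower, against 10.1% higher and 14.3% lower of all genes tested. The median log2 fold change was -0.02 over the 32 genes and 0.04 over all genes. With the replicate number as a block, which compares same-numbered libraries, 4 were higher and 5 lower, against 16.6% and 18.9% of all genes. In bulk RNA, fewer cells of a type and less RNA per cell cannot be told apart.

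**Figure D1:**
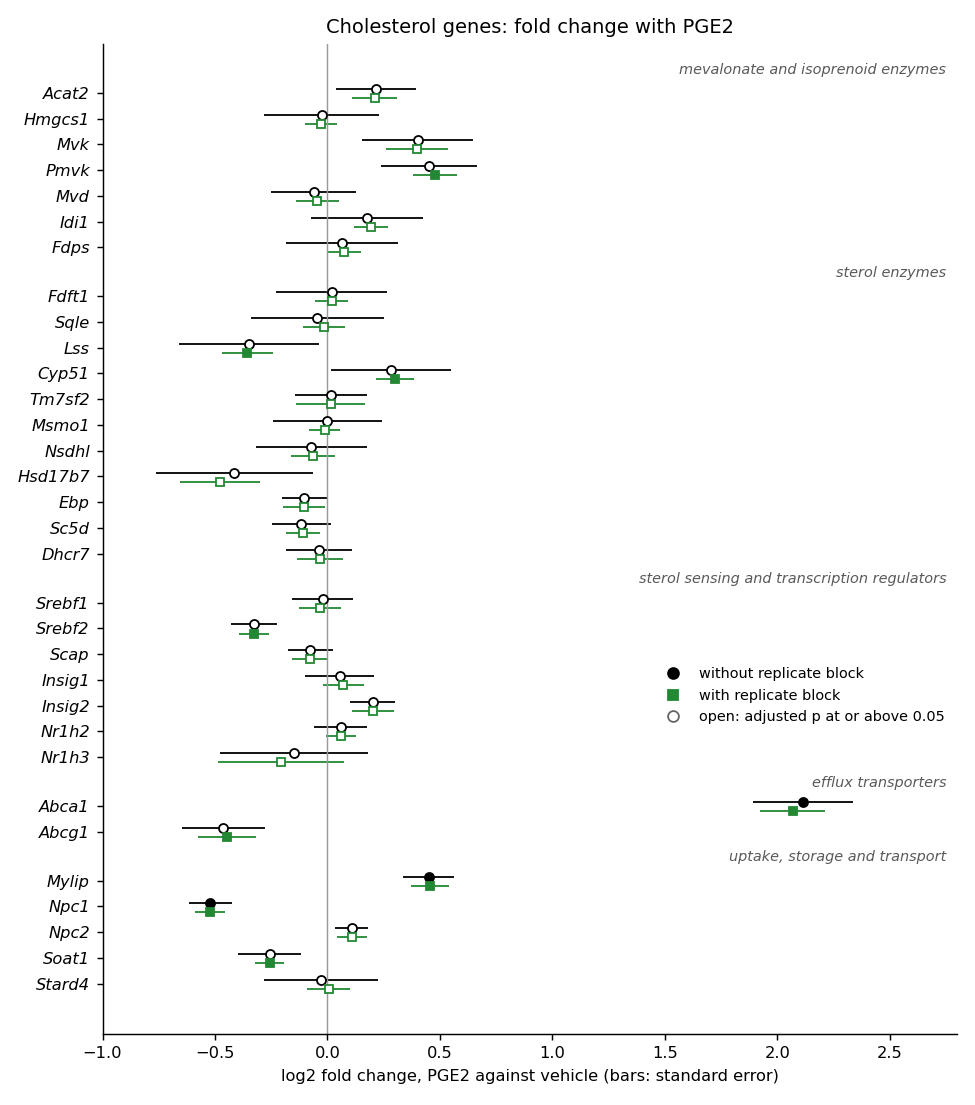
Log2 fold changes (PGE2 against vehicle, horizontal axis) of the 32 genes by role, with standard errors, from the edgeR fit without (circles) and with (squares) the replicate number as a block; filled symbols passed at an adjusted p under 0.05. Abca1 stands at 2.11, the other genes lie between -0.52 and 0.45 in the fit without the block, and the error bars of most synthesis enzymes shorten with it.

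Abca1 encodes the transporter that loads cellular cholesterol onto lipid-poor apolipoproteins (chromosome 4, 53030789 to 53159988, mm10, minus strand). Its level was 9.93, 11.1 and 11.9 CPM in vehicle replicates 1, 2 and 3 and 33.8, 63.8 and 45.1 CPM in PGE2 replicates 1, 2 and 3. The lowest PGE2 library stood well above the highest vehicle library, and replicate 2 was the highest of its group with PGE2 only. The log2 fold change was 2.11 ± 0.22 (SE; edgeR adjusted p = 0.000623; 95% interval 1.60 to 2.62). The same-numbered differences were 1.77, 2.52 and 1.92. Abca1 passed in each of the 14 alternatives run, with values from 1.53 on log2(TPM + 1), a scale that shrinks changes of low genes, to 2.31. PGE2 replicate 2, in which Abca1 was highest, also held the most erythroid marker RNA, and their part in the result was not tested. The summed level of those markers was greater in the PGE2 library at each replicate number (15780 against 4501 CPM in replicate 1, 51645 against 20206 CPM in replicate 2 and 23782 against 11935 CPM in replicate 3). Without PGE2 replicate 2 the log2 fold change was 1.84 (adjusted p = 0.00149).

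Abcg1, which exports cholesterol to mature lipoprotein particles (chromosome 17, 31057694 to 31117984), did not move with Abca1. It stood at 21.0, 32.5 and 32.2 CPM in vehicle replicates 1, 2 and 3 and at 19.3, 24.2 and 18.7 CPM in PGE2 replicates 1, 2 and 3. The groups overlapped, since vehicle replicate 1 lay among the PGE2 libraries. The log2 fold change was -0.46 ± 0.19 (edgeR adjusted p = 0.11). It was called lower with the replicate block (-0.45 ± 0.13, adjusted p = 0.0292) and without vehicle replicate 1 (-0.63, adjusted p = 0.0174). The log2 ratio of Abca1 to Abcg1 counts was -1.08, -1.54 and -1.43 in vehicle replicates 1, 2 and 3 and 0.80, 1.40 and 1.27 in PGE2 replicates 1, 2 and 3. Per length, Abcg1 led in vehicle (8.51 ± 1.51 against 1.85 ± 0.11 TPM for Abca1; mean ± SD, n = 3) and Abca1 led with PGE2 (7.38 ± 1.77 against 5.73 ± 0.28 TPM). By counts the order of the transporter transcripts was opposite in the groups in every library. Per length it was opposite in the means and in PGE2 replicates 2 and 3, while in PGE2 replicate 1 Abca1 (5.55 TPM) and Abcg1 (5.65 TPM) were nearly level.

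**Figure D2:**
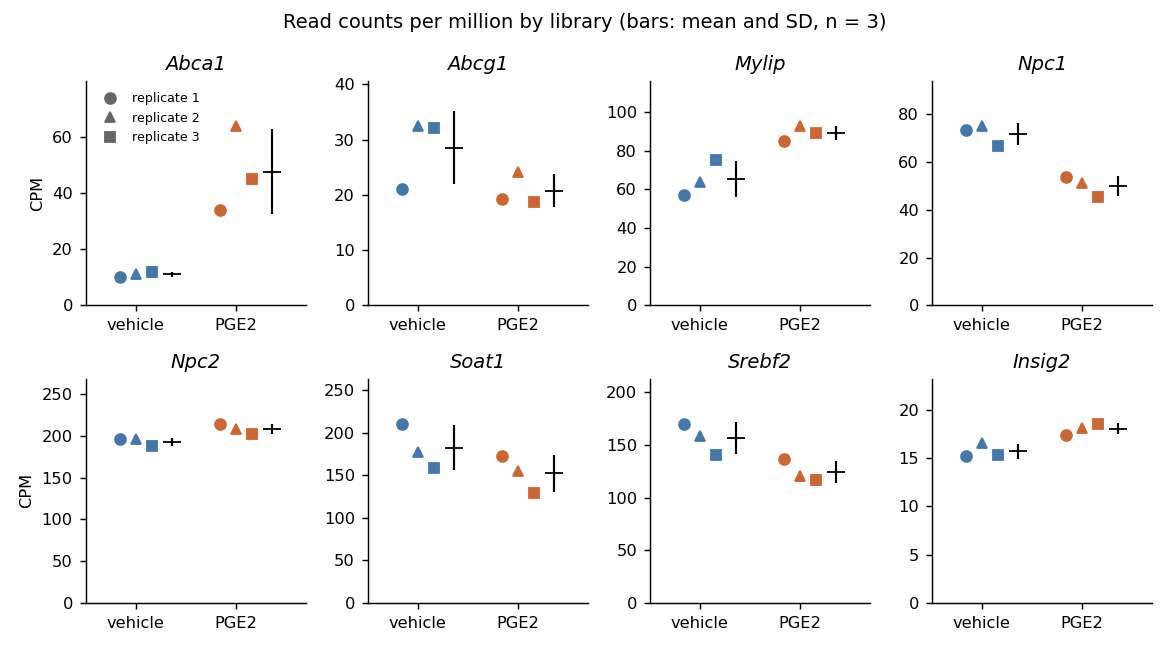
Levels (CPM, vertical axis from 0) of 8 genes in each library, with marker shapes for the replicate number and bars for mean and SD. Abca1, Mylip, Npc1, Npc2, Srebf2 and Insig2 show no overlap between the groups, while Abcg1 and Soat1 do. These 6 are all such genes among the 32, and 42.3% of all genes tested showed no overlap.

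Mylip, also called IDOL, encodes a ubiquitin ligase that sends lipoprotein receptors to lysosomes (chromosome 13, 45389742 to 45411940). Its levels were 56.9, 63.6 and 75.4 CPM in vehicle replicates 1, 2 and 3 and 85.2, 92.9 and 89.4 CPM in PGE2 replicates 1, 2 and 3. Every PGE2 library was above every vehicle library, although vehicle replicate 3 came close. The log2 fold change was 0.45 ± 0.11 (edgeR adjusted p = 0.022). Mylip missed the threshold when PGE2 replicate 2 (adjusted p = 0.0671), PGE2 replicate 3 (0.0544) or vehicle replicate 2 (0.079) was left out, and on TPM (0.067). Its alternatives spanned 0.00302 to 0.079.

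The Niemann-Pick genes encode the pair of lysosomal proteins that pass cholesterol from lipoproteins to the rest of the cell. Npc1, the membrane protein (chromosome 18, 12189694 to 12236506), was at 73.5, 75.2 and 66.8 CPM in vehicle replicates 1, 2 and 3 and at 53.6, 51.2 and 45.5 CPM in PGE2 replicates 1, 2 and 3. The groups lay far apart relative to their spread, and the log2 fold change was -0.52 ± 0.10 (edgeR adjusted p = 0.00575). It passed in each of the 14 alternatives. Npc2, the soluble partner, held 187.5 to 196 CPM in vehicle and 202 to 215 CPM with PGE2. Those groups did not overlap, as was so for 42.3% of all genes tested, but the difference was 0.11 ± 0.07 and did not pass (adjusted p = 0.331). On log2(TPM + 1) it was at -0.0027. Npc1 overlaps Rmc1 on the other strand, and the labels do not say if reads were counted by strand.

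Soat1, whose enzyme turns free cholesterol into esters for lipid droplets, was the most abundant of these genes after Npc2 by read count. It was at 211, 177 and 158 CPM in vehicle replicates 1, 2 and 3 and at 173, 155 and 129.7 CPM in PGE2 replicates 1, 2 and 3. Each PGE2 library was below the vehicle library of its number, as for 30.3% of all genes tested, while the groups overlapped. The log2 fold change was -0.26 ± 0.14 (edgeR adjusted p = 0.222), and with the block -0.26 ± 0.07 (adjusted p = 0.0183), which was called lower. Stard4, a carrier of sterols between membranes, varied 2.01-fold among the vehicle libraries and had a difference of -0.03 ± 0.25 (adjusted p = 0.954).

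Among the regulators, none of 7 passed without the block. Srebf2, the SREBP gene that chiefly drives cholesterol synthesis (chromosome 15, 82147269 to 82205379), was at 170.2, 158 and 140.4 CPM in vehicle replicates 1, 2 and 3 and at 137, 121 and 117 CPM in PGE2 replicates 1, 2 and 3. All PGE2 libraries lay below all vehicle libraries, by a narrow gap, and groups did not overlap for 42.3% of all genes tested. The log2 fold change was -0.33 ± 0.10 with an edgeR adjusted p of 0.0509, just short of the threshold of 0.05. With the block it was -0.33 ± 0.07 (adjusted p = 0.00673) and called lower. Over 14 alternatives the adjusted p ran from 0.00673 to 0.167, and 7 were past the threshold, among them the fits without PGE2 replicate 1 (0.033) and without vehicle replicate 3 (0.0406).

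Srebf1, which encodes the SREBPs of fatty acid synthesis, was at 30.3, 33.9 and 34.2 CPM in vehicle replicates 1, 2 and 3 and at 27.6, 38.6 and 30.7 CPM in PGE2 replicates 1, 2 and 3. The PGE2 libraries spanned the vehicle libraries, and the difference was -0.02 ± 0.13 (edgeR adjusted p = 0.93; 95% interval -0.33 to 0.29). That interval is of the whole gene. The count does not separate the Srebf1 start sites, of which 1 shares the LXR element with the Abca1 promoter. The part of that element in the level of either gene was not tested. The LXR genes themselves were at unlike levels. Nr1h2 (LXR beta) was at 95.3, 115 and 121 CPM in vehicle replicates 1, 2 and 3 and at 101.6, 124 and 119 CPM in PGE2 replicates 1, 2 and 3, a difference of 0.06 ± 0.12 (adjusted p = 0.769). Nr1h3 (LXR alpha) was at 1.72, 1.89 and 2.19 CPM in vehicle replicates 1, 2 and 3 and at 1.68, 1.09 and 2.45 CPM in PGE2 replicates 1, 2 and 3, a difference of -0.15 ± 0.33 (adjusted p = 0.787). Per length, Nr1h2 stood at 93.3 ± 7.16 TPM and Nr1h3 at 1.72 ± 0.17 TPM in vehicle.

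The sterol brakes Insig1 and Insig2 differed in how steady they were. Insig1, itself an SREBP target, was at 51.2, 44.2 and 33.5 CPM in vehicle replicates 1, 2 and 3 and at 48.7, 43.4 and 41.6 CPM in PGE2 replicates 1, 2 and 3. Its groups overlapped, and the difference was 0.05 ± 0.15 (edgeR adjusted p = 0.841). Insig2 was at 15.2, 16.6 and 15.3 CPM in vehicle replicates 1, 2 and 3 and at 17.4, 18.1 and 18.6 CPM in PGE2 replicates 1, 2 and 3. These groups did not overlap, as was so for 42.3% of all genes tested. The difference of 0.20 ± 0.10 did not pass (edgeR adjusted p = 0.19, and 0.135 with the block). Scap, the escort of SREBPs, was at 34.6 ± 1.74 CPM in vehicle and 32.8 ± 3.03 CPM with PGE2 (adjusted p = 0.636).

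The 18 synthesis enzymes had a median log2 fold change of -0.01, with 8 above 0 and 10 below, while 53.1% of all genes tested were above 0. Their summed level was 771, 676 and 486 CPM in vehicle replicates 1, 2 and 3 and 806, 673 and 509 CPM in PGE2 replicates 1, 2 and 3. Libraries with the same number were close to each other, and replicate 3 was low in both groups. Replicate 1 was the highest library of both groups in 12 of 18 enzymes (66.7%) and in 19.8% of all genes. Replicate 3 was the lowest of both in 14 of the 18, and in 2511 of all 15947 genes tested. The highest vehicle library was at least 1.5 times the lowest for 13 of the 18, and for 3 of the other 14 genes. Among the PGE2 libraries this was so for 11 of the 18 and for 3 of the other 14. The median SD within a group was 0.41 on the log2 CPM scale for the enzymes, 0.18 for the other 14 genes and 0.17 for the 11388 genes with a mean count of at least 100.

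**Figure D3:**
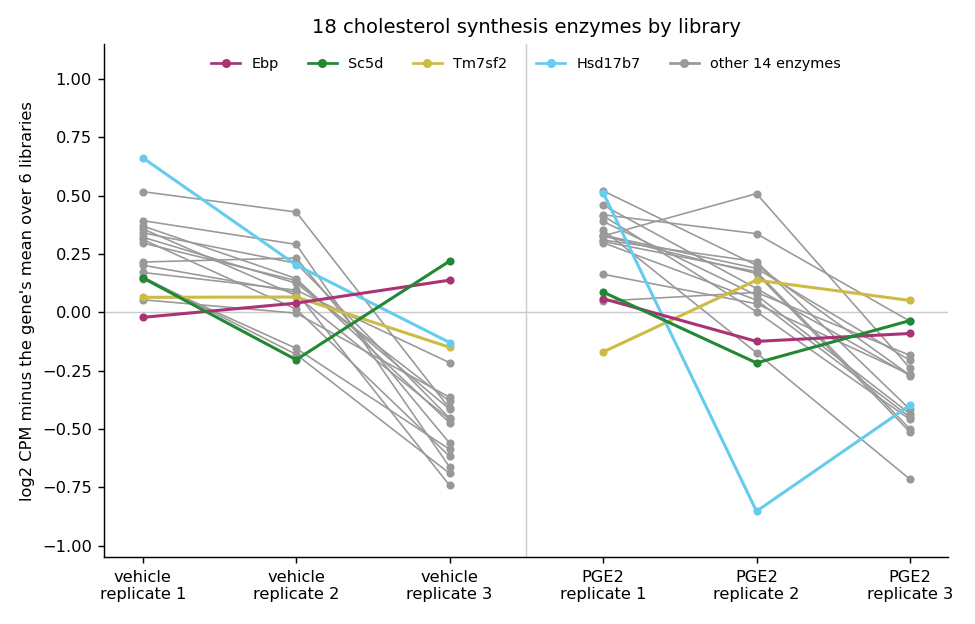
Each point is 1 of 18 synthesis enzymes in 1 library, as log2 CPM minus that gene's mean over the 6 libraries; lines join the points of a gene within a group and imply no order of the replicates. Most enzymes are high in replicate 1 and low in replicate 3 of both groups. For Ebp, Sc5d, Tm7sf2 and Hsd17b7 (coloured), replicate 3 is not the lowest in at least 1 group. Among the others, Mvk and Dhcr7 with PGE2 and Fdps in vehicle are highest in replicate 2.

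Markers of several cell types, neutrophils included, also differed between replicate numbers. Monocyte and macrophage markers summed to 1482, 1334 and 1149.9 CPM in vehicle replicates 1, 2 and 3 and to 1140.0, 880.0 and 743 CPM in PGE2 replicates 1, 2 and 3, the same order of numbers as for the enzymes but lower with PGE2. T and NK markers summed to 78.6, 179.6 and 185 CPM in vehicle and 85.0, 241 and 237 CPM with PGE2, lowest in replicate 1. Granulocyte precursor and cycling markers summed to 981, 684 and 783 CPM in vehicle and 745, 577 and 680 CPM with PGE2, highest in replicate 1. Single neutrophil markers went different ways. Mmp8, Ltf, Ngp, Camp and Itgam were highest in replicate 1 of both groups, S100a8 and S100a9 in replicate 2, and Mmp9 and Retnlg in replicate 3. Ly6g, Csf3r and Cxcr2 were highest in unlike numbers in the groups. The part of any of these markers in the levels of the enzymes was not tested. The labels do not say what a replicate number stands for.

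**Figure D4:**
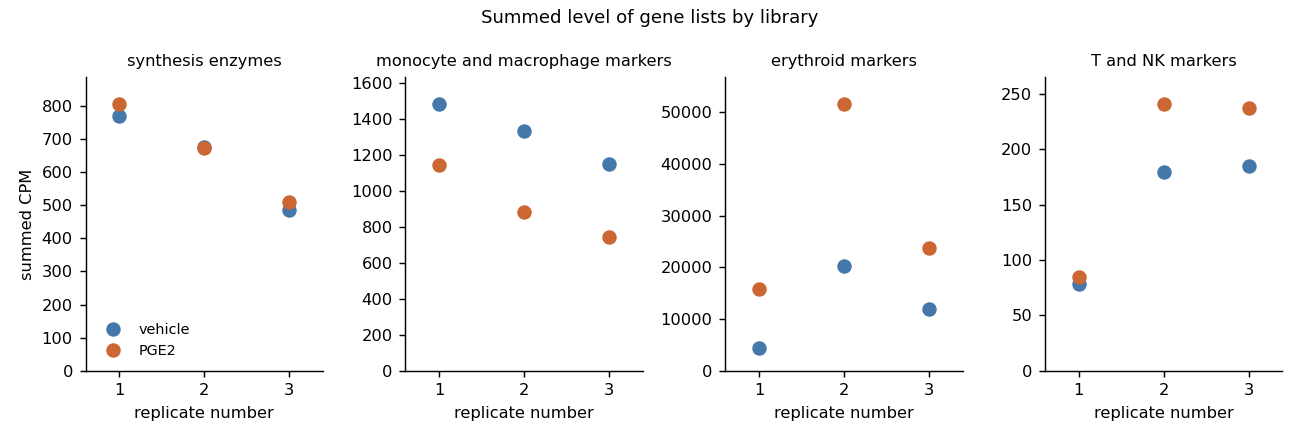
Summed CPM (vertical axes from 0) of the 18 synthesis enzymes and of 3 lists of markers, by replicate number, for vehicle and PGE2. The enzymes lie between 486 and 806 CPM with same-numbered libraries side by side, while erythroid markers lie higher and monocyte markers lower with PGE2 at every number.

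In the first stretch of the pathway, to farnesyl diphosphate, 5 of 7 enzymes had log2 fold changes above 0 and none passed without the block. Of all genes tested, 53.1% were above 0. Pmvk, phosphomevalonate kinase (chromosome 3, 89454541 to 89469014), was at 30.4, 24.2 and 17.0 CPM in vehicle replicates 1, 2 and 3 and at 36.6, 34.6 and 26.7 CPM in PGE2 replicates 1, 2 and 3. Each PGE2 library was above the vehicle library of its number, as for 32.5% of all genes tested, while the groups overlapped. Its log2 fold change was 0.45 ± 0.21 (edgeR adjusted p = 0.167), and 0.48 ± 0.10 with the block (adjusted p = 0.00703), which was called higher. Mvk, mevalonate kinase, was at 0.40 ± 0.25 (adjusted p = 0.285; 0.0585 with the block). Idi1, the isomerase that makes the second isoprene unit, was at 61.7 ± 19.0 CPM in vehicle and 69.7 ± 17.4 CPM with PGE2, a difference of 0.17 ± 0.25 (adjusted p = 0.666; 0.0876 with the block). Hmgcs1, the synthase that forms HMG-CoA, was among the most abundant, at 102.9 ± 28.9 CPM in vehicle and 101.1 ± 30.0 CPM with PGE2 (adjusted p = 0.957; with the block the 95% interval was -0.19 to 0.14). Acat2, which starts the pathway, was at 0.21 ± 0.18, Fdps at 0.06 ± 0.25 and Mvd at -0.06 ± 0.19, with adjusted p from 0.427 to 0.884. Acat2 has a close paralog, Acat3, and Fdps overlaps an unnamed locus on its own strand, so how reads were divided there is uncertain.

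From squalene to cholesterol, 3 of 11 enzymes were above 0, against 53.1% of all genes tested, and none passed without the block. Several lay near 0 on either side, within their standard errors, so their signs say little. Among them were Sqle (-0.05), Dhcr7 (-0.04), Fdft1 (0.02), Tm7sf2 (0.02) and Msmo1 (98.6 CPM in each group). Cyp51, lanosterol demethylase (chromosome 5, 4080674 to 4104697), was at 74.3, 68.6 and 38.6 CPM in vehicle replicates 1, 2 and 3 and at 92.7, 74.3 and 53.6 CPM in PGE2 replicates 1, 2 and 3. It was higher with PGE2 in each same-numbered pair, by 0.32, 0.12 and 0.47 on the log2 scale. All 3 pairs were higher for 32.5% of all genes tested. The difference was 0.28 ± 0.27 (edgeR adjusted p = 0.495), and 0.30 ± 0.08 with the block (adjusted p = 0.0252), which was called higher. Lss, lanosterol synthase (chromosome 10, 76531565 to 76557139), was at 20.5, 19.3 and 10.8 CPM in vehicle replicates 1, 2 and 3 and at 18.3, 12.7 and 8.71 CPM in PGE2 replicates 1, 2 and 3. It was lower in each pair, as were 30.3% of all genes tested. The difference was -0.35 ± 0.31 (edgeR adjusted p = 0.468), and with the block -0.36 ± 0.11 (adjusted p = 0.0439), which was called lower. With the block, Lss and Cyp51, which acts on the product of Lss, were thus called in opposite directions. Lss overlaps 4930483K19Rik on the other strand.

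Hsd17b7, a ketosteroid reductase of the pathway, had the widest PGE2 group of the enzymes by ratio of highest to lowest, at 13.0, 5.05 and 6.92 CPM in replicates 1, 2 and 3, with a difference of -0.41 ± 0.35 (edgeR adjusted p = 0.438; 0.0749 with the block). Msmo1, the methylsterol oxidase, was at 98.6 ± 23.8 CPM in vehicle and 98.6 ± 27.8 CPM with PGE2. Fdft1 (squalene synthase), Sqle (squalene epoxidase), Nsdhl, Ebp, Sc5d, Dhcr7 and Tm7sf2, which carry out the remaining steps, had log2 fold changes between -0.12 (Sc5d) and 0.02 (Fdft1 and Tm7sf2), with adjusted p from 0.502 to 0.967. Fdft1 overlaps Ctsb on the other strand and Tm7sf2 overlaps Vps51 on its own, so their counts are uncertain. Without the block the 95% interval lay within 1 log2 unit of 0 for 16 of the 18 enzymes, and with it for all 18.

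Levels compared per length placed Npc2 first in vehicle, at 103.8 ± 7.95 TPM, followed by Msmo1 at 94.1 ± 26.6 TPM, Nr1h2 at 93.3 ± 7.16 TPM and Soat1 at 67.4 ± 13.8 TPM. These neighbours differed by less than the spread of Msmo1 or Soat1, except for Soat1 against Nr1h2. Fdps followed at 57.5 ± 17.5 TPM, Srebf2 at 54.5 ± 8.30 TPM and Hmgcs1 at 51.7 ± 17.3 TPM, which also lay within their spread. Among the enzymes Hsd17b7 (4.33 ± 1.46 TPM), Lss (4.71 ± 1.63 TPM) and Tm7sf2 (6.39 ± 0.77 TPM) were lowest, and Nr1h3 and Abca1 were the lowest of all 32 in vehicle.

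Lists of related genes, made with results of these data known, are given by their counts, against 10.1% higher and 14.3% lower of all genes. In the list of other synthesis and isoprenoid genes, 0 of 18 were higher and 3 lower (median log2 fold change 0.05). Acly, which supplies cytosolic acetyl-CoA, went from 191 ± 17.3 to 132.5 ± 3.26 CPM, a difference of -0.53 ± 0.09 (edgeR adjusted p = 0.00418), and Dhdds, of dolichol synthesis, was at -0.59 ± 0.10 (adjusted p = 0.00421). Lbr, a sterol reductase that is also the lamin B receptor, was at -0.40 ± 0.12 (adjusted p = 0.0498; 0.0904, 0.132, 0.11, 0.117 and 0.135 without PGE2 replicates 1, 2 and 3 and vehicle replicates 2 and 3; 0.00997 to 0.135 over the alternatives). With the block 3 of this list were higher and 3 lower. In the list of other sterol sensing genes, 0 of 13 were higher and 4 lower (median -0.13). Ncor1, a nuclear receptor corepressor that silences LXR targets among many others, went from 799 ± 106.6 to 356 ± 52.9 CPM, a difference of -1.17 ± 0.14 (adjusted p = 0.000919). With the block 1 of this list was higher and 5 lower. Rxrb, a partner of LXRs, was at -0.36 ± 0.11 (adjusted p = 0.0395), and its adjusted p was 0.108, 0.112, 0.0524, 0.0804 and 0.123 without PGE2 replicates 1 and 2 and vehicle replicates 1, 2 and 3 (0.00352 to 0.142 over the alternatives).

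In uptake, storage and transport, 1 of 26 tested genes was higher and 7 lower (median -0.11), and with the block 3 were higher and 11 lower. Gramd1b, which carries cholesterol from the plasma membrane to the endoplasmic reticulum, went from 79.3 ± 5.99 to 38.9 ± 2.08 CPM, a difference of -1.03 ± 0.09 (edgeR adjusted p = 0.000369). Osbpl2, an oxysterol-binding protein, was at -0.99 ± 0.11, Lrp8, a lipoprotein receptor, at -1.17 ± 0.17, and Lipa, the lysosomal acid lipase that frees cholesterol from esters, at -1.26 ± 0.23. The gene that was higher, Lrp1, named after its values were seen, was at 0.44 ± 0.13 (adjusted p = 0.0378; 0.104, 0.0907, 0.0996 and 0.0959 without PGE2 replicates 2 and 3 and vehicle replicates 2 and 3; 0.0126 to 0.25 over the alternatives). The lower genes numbered 5 to 7 with any 1 library left out.

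In the list of other efflux, oxysterol and LXR target genes, 0 of 14 tested were higher and 4 lower (median -0.24), and the lower count was 4 in each alternative, while 1 was higher with the block. The transporter gene Abca2 went from 52.2 ± 2.63 to 23.9 ± 3.90 CPM, a difference of -1.13 ± 0.13 (edgeR adjusted p = 0.00087). Abca7, a close relative of Abca1, went from 524.5 ± 34.1 to 339 ± 10.2 CPM, a difference of -0.63 ± 0.08. Smpdl3a and Abca3 were at -0.63 ± 0.13 and -0.71 ± 0.15. Of the ABCA genes named here, Abca1 was higher and Abca2, Abca3 and Abca7 were lower. Of 15 tested fatty acid genes that SREBPs act on, 3 were higher and 3 lower (median 0.10, also with Acacb at its bound), 5 in each direction with the block, and 1 to 3 in each direction with any 1 library left out. Scd1, the stearoyl-CoA desaturase, went from 23.5 ± 0.732 to 37.2 ± 3.59 CPM, a difference of 0.66 ± 0.10 (adjusted p = 0.00262). Acacb, an acetyl-CoA carboxylase, was counted 34, 71 and 95 times in PGE2 replicates 1, 2 and 3 and 0 times with vehicle. Acacb thus passed the filter on low counts, and entered the list of tested genes, only through the PGE2 libraries. Set against an assumed bound of 3 counts in the whole vehicle group, the mean PGE2 level was 55-fold higher. That figure is rough, since it leaves out the spread of the PGE2 libraries. Aacs, which activates acetoacetate, was at -0.66 ± 0.11, and Mid1ip1 at -0.33 ± 0.08 (adjusted p = 0.0181; 0.0618 and 0.0852 when PGE2 replicate 2 or vehicle replicate 2 was left out; alternatives spanned 0.000574 to 0.0875).

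**Figure D5:**
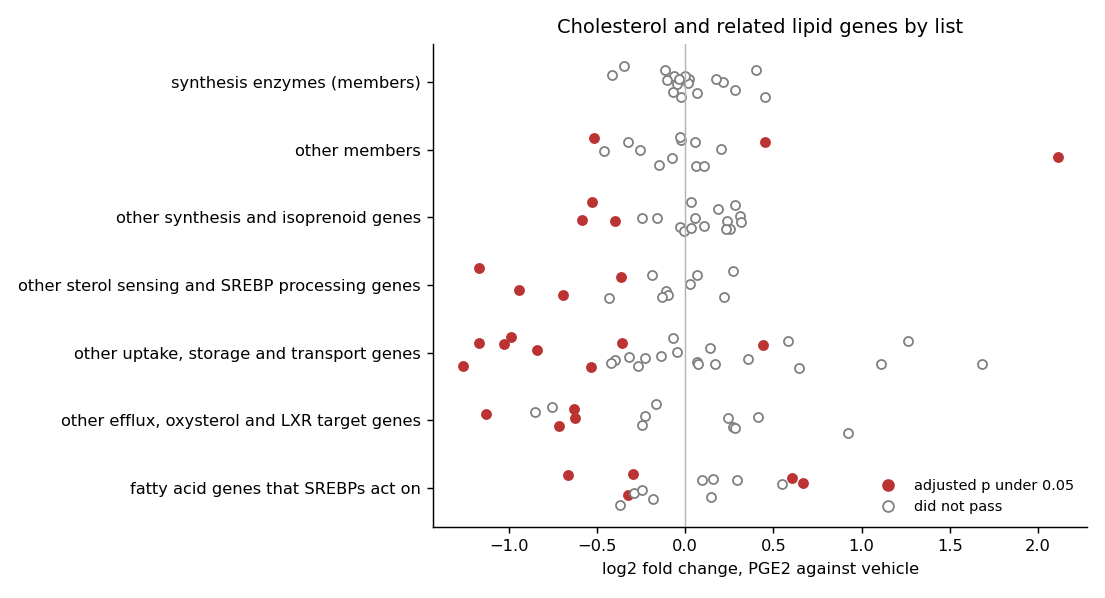
Log2 fold changes (PGE2 against vehicle, horizontal axis) of single genes by list, with vertical scatter only to separate points; filled points passed at an adjusted p under 0.05, and Acacb, at 0 counts in vehicle, is left out. The 18 synthesis enzymes lie between -0.41 and 0.45 with none filled, and most filled points of the other lists lie below 0.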

How the data were processed

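RNA-seq of 6 libraries was analysed. The authors deposited expected counts per gene, held as whole numbers, and TPM (abundance scaled for transcript length). The submitters' processing notes name Bowtie2, STAR, RSEM, StringTie 2.1.3b, DESeq2 and mm10, without saying what each did. The labels do not say if counting used the strand, and 10 of the 32 genes overlap another gene. The 18 columns of other libraries in the table were not used. RefSeq GRCm38.p6 gave an identical start and end for 96.4% of 45674 genes matched by ID, all 32 members included.

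Genes with at least 10 counts in at least 3 libraries were tested with edgeR 4.0.16 (quasi-likelihood, TMM scaling, R 4.3.3), with Benjamini-Hochberg adjustment over all genes and a threshold of 0.05. Errors after ± are standard errors of log2 fold changes and SDs (n = 3) of levels. Same-numbered libraries deviated from their group means together (correlations across genes of 0.258, 0.174 and 0.187), so the replicate number was taken to pair libraries, as a pattern in the data and not a statement of the labels. Alternatives used DESeq2 1.42.0, limma 3.58.1 on log2(TPM + 1), other filters and scalings, and each library left out. The edgeR fit was tested on simulated data of 15484 genes for this comparison, of which 200 were changed. It recovered 13.4% of 1.5-fold changes, 55.2% of 2-fold changes and 80.3% of 4-fold changes, with 9.17% false calls. In the real data 24.4% of genes tested were called. The adjustment depends on that share, so these recovery rates may not hold for the real data. The members and lists were chosen with earlier results of these data known. All 32 genes are accounted for, with each library's value for those that passed at a mean count of at least 100 and for 8 regulators and transporters. Of each related list, up to 4 genes that passed with the smallest adjusted p are named, and some that this rule would name are not reported here.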

Additional observations from a re-analysis of the deposited data

How the results depend on the processing

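With the replicate block, 2648 of all genes were called higher, as were 4 of the 32 genes (Abca1, Mylip, Pmvk and Cyp51), and 5 were lower (Npc1, Srebf2, Abcg1, Soat1 and Lss), of which 2 higher and 1 lower were synthesis enzymes. The block ended no call among the 32. On log2(TPM + 1) with limma, 967 of all genes were higher, and 1 member was higher and 2 were lower. The DESeq2 Wald test, a filter of 50 counts and leaving out hemoglobin genes each gave 2 lower members. Requiring a fold of at least 1.5 left 1 higher member and 0 lower. With 1 library left out, 1005 to 1541 of all genes and 1 to 2 members were higher, 1 to 2 members were lower, and no synthesis enzyme was called. Of 448 values of single members under the alternatives, 431 stayed on their side of the threshold, 4 were no longer past it and 13 came past it. The sign was that of the main value in 395 and the other in 53, all 53 of them among the 29 genes that had not passed. The causes were not tested. Scaling by library totals moved the median log2 fold change of all genes from 0.04 to 0.131 and the higher share of calls from 41.5% to 55.5%. On TPM the median was -0.0637 and the share 30%. The median of the synthesis enzymes ran from -0.151 to 0.176 with 1 library left out.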
